A study of Mus musculus with 22 samples.

Results

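The proliferin genes are a cluster of near-identical mouse genes of the prolactin family. The 3 of them with values here, Prl2c2, Prl2c3 and Prl2c5, were examined among 10516 genes in NIH3T3 cells, an immortalised line of mouse embryonic fibroblasts, after knockdown of Denr. They were chosen because Prl2c3 and Prl2c5 were among the genes whose RNA was lowest relative to control cells, so the values of that comparison are given below as a description and without a test. Prl2c2 was taken with them because the coding sequences are so alike that short reads can fall on more than 1 of them.

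Proliferins are secreted glycoproteins. They were first met as RNAs that serum and growth factors induce in cultured mouse fibroblasts, and in the animal they are made by trophoblast giant cells of the placenta, where they act as angiogenic hormones. They carry mannose 6-phosphate and bind the cation-independent mannose 6-phosphate receptor, which is encoded by Igf2r. DENR, the protein that was depleted, forms a complex with MCT-1 that helps ribosomes to reinitiate after they have translated an upstream open reading frame (uORF) in the 5′ UTR.

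The cells carried lentiviral shRNAs. Denr shRNA1 and Denr shRNA2 made up the Denr knockdown condition with 3 lysates each, and scramble shRNA with 3 lysates and Gfp shRNA with 2 lysates made up the control condition. Each of the 11 lysates, prepared from its own dish, gave a library of ribosome-protected fragments (RPF-seq) and one of total RNA (RNA-seq). All cells, controls included, had been transduced, were selected with puromycin and received cycloheximide at 100 μg/ml for 2 min before harvest. The measure of level is RPKM, that is reads per kilobase of coding sequence (CDS) or 5′ UTR, scaled to the normalized size of the library. It allows levels to be compared between genes.

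Per library, reads on CDS and 5′ UTR of genes with values numbered 8514080 to 20109700 in RNA-seq and 10927303 to 21649878 in RPF-seq. Denr RNA fell to 40.5 RPKM ± 5.32 (SD, n = 3) with shRNA1 and to 17.9 ± 2.70 (n = 3) with shRNA2, against 188 ± 2.45 (n = 3) with scramble and 169 ± 6.32 (n = 2) with Gfp shRNA, a log2 difference between the conditions of -2.75 ± 0.25 (SE, limma, adjusted p = 0.00035). Of 10 fibroblast markers, Col1a1, Col1a2, Vim and Thy1 among them, 10 were measured, with a summed RNA level of 8612 to 10894 RPKM in knockdown and 8257 to 10233 RPKM in control lysates, and none passed the FDR of 0.1 in RNA, footprints or TE. None of the 15 trophoblast markers listed (placental lactogens, Hand1, Gcm1 and others) and none of the 6 blood cell markers was among the genes with values. Of the endothelial markers 2 of 6 (Cdh5 and Flt1) were measured, together at 1.76 to 2.72 RPKM, and of the epithelial markers 1 of 6 (Cdh1), at 2.74 to 4.05 RPKM, and neither list had a member past the FDR.

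The genes lie within a stretch of chromosome 13 in build GRCm38, interrupted by no other gene with values here. Prl2c3 (ENSMUSG00000056457) occupies chr13:12790816-12800079 and Prl2c2 (ENSMUSG00000079092) chr13:12996125-13005383, both on the minus strand. Prl2c5 (ENSMUSG00000055360) occupies chr13:13182715-13191923 on the plus strand. The lengths behind the RPKM values correspond to the transcript Prl2c2-201 (CDS of 672 nt without the stop codon, 5′ UTR of 57 nt), to Prl2c3-201 (672 nt, 66 nt) and to Prl2c5-202 (675 nt, 185 nt). For Prl2c3-201 the match is not exact, as its annotated 5′ UTR has 67 nt. The transcripts of Prl2c2 and Prl2c3 have 5 exons each and Prl2c5-202 has 6.

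The Prl2c2 and Prl2c3 coding sequences are 99.6% identical and differ by 3 substitutions over 675 bases, stop codon included, counted from the A of the start codon. These few bases are shown because only reads that cover them, or an end of the CDS, can tell the genes apart. Each stretch is given 5′ to 3′ from the GENCODE transcripts with the differing base in capitals, first for T14C, then for C200A and T319G.
Prl2c2, CDS bases 1 to 30: atgctcccttcttTgattcaaccatgctcc
Prl2c3, CDS bases 1 to 30: atgctcccttcttCgattcaaccatgctcc
Prl2c2, CDS bases 185 to 214: tttcagaactgttcaCtgaatttgaaaaac
Prl2c3, CDS bases 185 to 214: tttcagaactgttcaAtgaatttgaaaaac
Prl2c2, CDS bases 304 to 333: aggctcacacactatTcagctcttctgaaa
Prl2c3, CDS bases 304 to 333: aggctcacacactatGcagctcttctgaaa

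The coding sequence of Prl2c5-201, the 5-exon form of Prl2c5, is 96.1% identical to that of Prl2c2 and 96.0% to that of Prl2c3. Of the 646 windows of 30 nt in the CDS of Prl2c2, about the length of a ribosome footprint, 35 (5.42%) occur in no other Prl2c gene of the annotation. The same holds for 74 of 646 windows (11.5%) of Prl2c3 and for 366 of 649 windows (56.4%) of Prl2c5-202. Outside the Prl2c genes, such windows were shared with Gm7040 (285 windows) and with Prl7d1 (11 windows). How reads that match several genes were assigned is not given in the sources used here, so the values of single genes are uncertain and the sum of the 3 genes is given beside them.

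The start of translation is shown next, because the 3 genes share it and the annotated 5′ UTR of Prl2c5-202 extends past it. The start codon is in capitals, with 9 bases of 5′ UTR before it.
Prl2c2-201, chr13:13005306-13005335, minus strand: tctgcagagATGctcccttctttgattcaa
Prl2c3-201, chr13:12799992-12800021, minus strand: tctgcagagATGctcccttcttcgattcaa
Prl2c5-201, chr13:13182773-13182802, plus strand: tctgcagagATGctcccttctttgattcaa
Prl2c5-202, chr13:13182996-13183025, plus strand: ttggagcaaATGcacagtgcatttatggat

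The 5′ UTRs of Prl2c2-201 and Prl2c3-201 hold no AUG that starts a uORF. Prl2c5-202 holds 3 AUG uORFs, of 33, 24 and 18 nt. The first begins at the AUG that starts the CDS in Prl2c5-201 and runs 10 codons to a stop codon that the 5-exon form does not have there. Its last 30 bases, with the stop codon in capitals, are ctcccttctttgattcaaccatgctccTGA. Reads counted on the 5′ UTR of Prl2c5 can therefore include reads on a stretch that is coding in the other genes.

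RNA of the proliferin genes was lower in Denr knockdown than in control lysates for each of the 3 genes, with no overlap between the conditions. Non-overlapping lysates with lower values in knockdown were seen for 1.04% of all genes, and 0.865% passed limma at FDR 0.1 in this direction. Since the genes were chosen on this comparison, nothing is read from that share. The summed proliferin RNA was 20.99 RPKM ± 4.25 (SD, n = 6) in knockdown and 47.6 ± 11.99 (n = 5) in control lysates, which is 44.1% of the control mean. In bulk RNA, fewer cells that express a gene and less of its RNA per cell cannot be told apart.

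Prl2c3, the gene with the largest RNA difference after Denr itself, had 4.80, 5.72 and 5.26 RPKM in the lysates of Denr shRNA1 and 7.98, 7.54 and 8.53 RPKM in those of Denr shRNA2. In the controls it had 11.8 and 13.3 RPKM with Gfp shRNA and 20.6, 22.9 and 24.3 RPKM with scramble shRNA. The 4 shRNAs formed 4 separate levels, and the mean difference between the conditions was -1.45 on the log2 scale, that is 35.7% of the control mean in RPKM.

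Prl2c2, the most abundant member in RNA-seq, had 9.71, 11.04 and 13.8 RPKM with Denr shRNA1, 15.9, 15.0 and 15.3 with Denr shRNA2, 20.1 and 21.2 with Gfp shRNA, and 30.2, 28.2 and 33.5 with scramble shRNA. The order of the shRNAs was that of Prl2c3, and again no lysate of one shRNA lay within the range of another. Of all genes, 7.81% had RNA higher without overlap with Denr shRNA2 than with shRNA1, and 11.1% lower without overlap with Gfp than with scramble shRNA. Its log2 difference between the conditions was -0.97, and the knockdown mean was 50.5% of the control mean.

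Prl2c5 was the least abundant, with 0.213, 0.963 and 0.786 RPKM with Denr shRNA1, 0.930, 0.938 and 1.44 with Denr shRNA2, 1.63 and 1.45 with Gfp shRNA, and 3.07, 3.12 and 2.38 with scramble shRNA. The 2 Denr shRNAs overlapped, and the highest knockdown lysate (1.443 RPKM) and the lowest control lysate (1.450 RPKM) nearly touched. These values rest on 2 to 36 reads per library, whereas Prl2c2 had 91 to 353 and Prl2c3 40 to 241 reads in RNA-seq. Its log2 difference was -1.39, and 4 of 6 knockdown and 5 of 5 control lysates had at least 10 RNA-seq reads. In RPF-seq 3 of 6 knockdown lysates, all of Denr shRNA2, and 5 of 5 control lysates had at least 10 reads on Prl2c5. The authors removed genes with fewer than 10 reads in most samples, and Prl2c2 and Prl2c3 had at least 10 in every library.

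**Figure D1:**
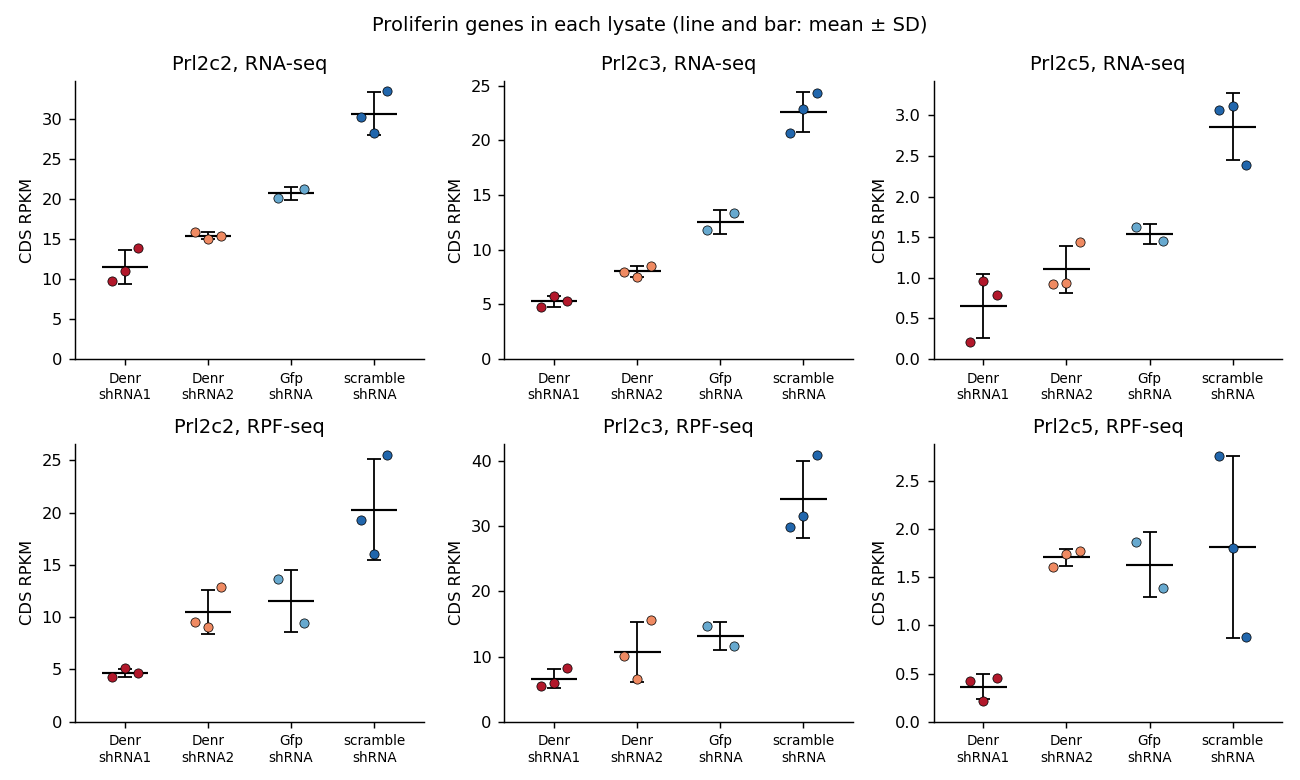
CDS RPKM (vertical axes, from 0) of Prl2c2, Prl2c3 and Prl2c5 in each lysate by shRNA, RNA-seq in the upper and RPF-seq in the lower row, with points for lysates, lines for means and bars for the SD. In RNA-seq the levels step up from Denr shRNA1 over Denr shRNA2 and Gfp shRNA to scramble shRNA, for example from 5.26 to 22.6 RPKM in Prl2c3, while in RPF-seq the lysates of Gfp shRNA overlap those of Denr shRNA2 in each gene.

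In the order of RNA differences over the 10516 genes, Denr came first, Prl2c3 at rank 2, Prl2c5 at rank 4 and Prl2c2 at rank 12. Between the members stood Cxcl1, a chemokine that attracts neutrophils (log2 difference -1.42, from 8.35 to 3.14 RPKM). The next genes after Prl2c5 were Slurp1, which encodes a small secreted protein (-1.30), and Serpinb1a, a serine protease inhibitor (-1.20). Prl2c2 stood between Ptx3, for a secreted pentraxin (-1.03), and Ecm1 (-0.87). Relative to all genes the members were of middle to low level, with 48.3% of genes below Prl2c2, 38.2% below Prl2c3 and 5.97% below Prl2c5 in the control RNA-seq mean, where the median gene had 28.2 RPKM.

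CDS footprints of the 3 genes had lower means in knockdown as well. Prl2c3 had 5.56, 5.97 and 8.24 RPKM with Denr shRNA1, 10.0, 6.56 and 15.6 with Denr shRNA2, 14.7 and 11.6 with Gfp shRNA, and 29.8, 31.6 and 40.9 with scramble shRNA. The scramble lysates stood apart from all others, whereas those of Gfp shRNA lay within the range of Denr shRNA2. The log2 difference between the conditions was -1.50, and the knockdown mean was 33.7% of the control mean.

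Prl2c2 footprints were 4.27, 5.10 and 4.63 RPKM with Denr shRNA1, 9.58, 9.04 and 12.9 with Denr shRNA2, 13.7 and 9.42 with Gfp shRNA, and 19.3, 16.1 and 25.5 with scramble shRNA. Here, too, Gfp shRNA and Denr shRNA2 overlapped, and the log2 difference between the conditions was -1.18. Prl2c5 footprints were 0.426, 0.216 and 0.449 RPKM with Denr shRNA1, 1.61, 1.74 and 1.78 with Denr shRNA2, 1.87 and 1.39 with Gfp shRNA, and 2.76, 1.81 and 0.876 with scramble shRNA, from 2 to 24 reads per library. Only the lysates of Denr shRNA1 were below those of every control, and the log2 difference of -0.94 became 0.06 with Denr shRNA2 alone.

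Summed over the 3 genes, footprints amounted to 17.3 RPKM ± 7.57 (SD, n = 6) in knockdown and 44.3 ± 17.9 (n = 5) in control lysates, 39.1% of the control mean. The highest knockdown lysate, at 30.3 RPKM, exceeded the lowest control lysate, at 22.4 RPKM. Lower and non-overlapping footprints in knockdown were seen for 1.97% of all genes and for none of the 3 members.

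Reads were divided differently between the members in the 2 assays. In RNA-seq, Prl2c2 took 52.1 to 69.5% of the reads on the 3 coding sequences, Prl2c3 26.5 to 42.2% and Prl2c5 1.45 to 5.78%. In RPF-seq, Prl2c2 took 32.5 to 52.1%, Prl2c3 37.8 to 63.9% and Prl2c5 1.31 to 10.1%. The ratio of Prl2c3 to Prl2c2 reads in RNA-seq was 0.381 to 0.518 with Denr shRNA1, 0.503 to 0.556 with Denr shRNA2, 0.586 to 0.627 with Gfp shRNA and 0.683 to 0.810 with scramble shRNA. The ranges in RNA-seq thus overlapped between the Denr shRNAs and lay apart from those of the controls. Since Prl2c3 was chosen for its lower RNA in knockdown, nothing is read from this separation, which was not tested. In RPF-seq the ratio was 1.17 to 1.78, 0.726 to 1.21, 1.07 to 1.23 and 1.55 to 1.97 in the same order, and Gfp shRNA overlapped with both Denr shRNAs, as did scramble shRNA with Denr shRNA1.

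The translation efficiency (TE), here the log2 footprint level minus the log2 RNA level of the same lysate, overlapped between the conditions for each of the 3 genes and for their sum. For the sum of the 3 genes it was -0.52, -0.65 and -0.57 with Denr shRNA1, -0.23, -0.44 and 0.26 with Denr shRNA2, -0.15 and -0.68 with Gfp shRNA, and -0.06, -0.13 and 0.16 with scramble shRNA. The means of the conditions differed by -0.19. For the single genes the difference in log2 TE was -0.21 for Prl2c2, -0.06 for Prl2c3 and 0.45 for Prl2c5. With Denr shRNA1 alone against the controls the difference was -0.41 for the sum, -0.56 for Prl2c2 and -0.14 for Prl2c5. With Denr shRNA2 alone it was 0.04, 0.15 and 1.04, so the sign of these values changed with the shRNA used. For Prl2c3 the sign did not change, at -0.07 with Denr shRNA1 alone and -0.04 with Denr shRNA2 alone. None of these values was tested. By rank from the largest TE decrease, Prl2c2 stood at 952, Prl2c3 at 3738 and Prl2c5 at 10454 of 10516 genes. TE passed the FDR in 0.475% of genes, each with lower TE in knockdown.

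The TE of Prl2c3 exceeded that of Prl2c2 in 11 of 11 lysates, by 0.53 to 2.19 with a median of 1.14 on the log2 scale. The coding sequences of both genes differ only at the bases shown above, and the part of read assignment in this difference was not tested.

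**Figure D2:**
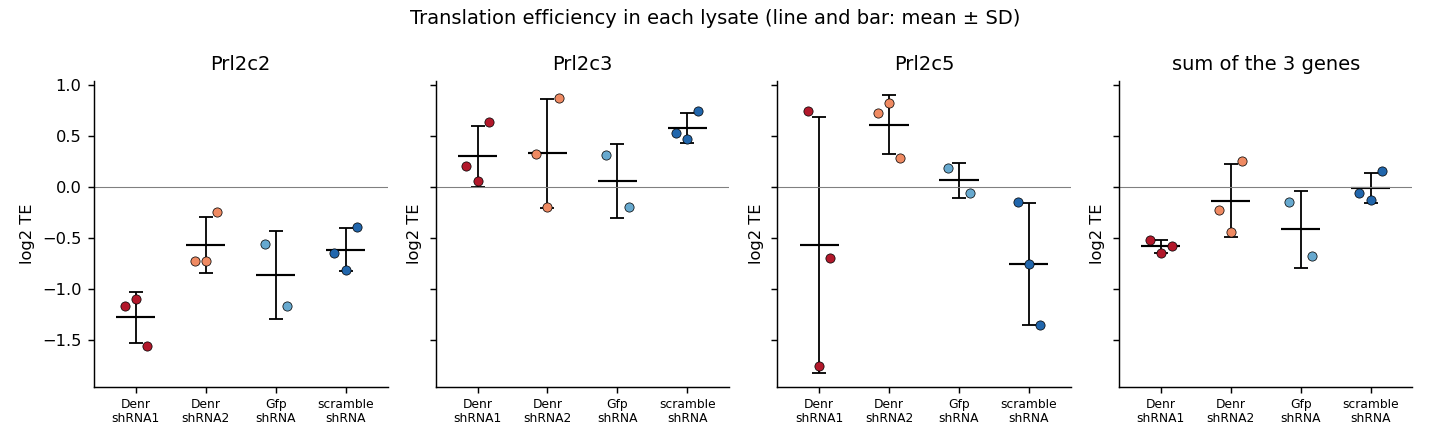
Log2 TE (vertical axis, log2 of footprint over RNA level) in each lysate by shRNA for Prl2c2, Prl2c3, Prl2c5 and the sum of the 3 genes, with points for lysates, lines for means and bars for the SD. The knockdown and control lysates overlap in every panel, and the Denr shRNA1 lysates of Prl2c2, at -1.10 to -1.56, include the lowest value of that gene.

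Whether the 2 Denr shRNAs gave the same proliferin level was tested between their lysates, a contrast that the choice of the genes did not use. Proliferin RNA was higher with Denr shRNA2 than with Denr shRNA1. Denr RNA was lower with shRNA2 (log2 difference -1.18 ± 0.12, SE, limma, adjusted p = 0.00197). Prl2c3 RNA was higher by 0.60 ± 0.11 (SE) on the log2 scale (95% interval 0.36 to 0.84, adjusted p = 0.0248) and the sum by 0.50 ± 0.11 (0.26 to 0.74, adjusted p = 0.0587). In this direction 1.13% of all genes passed in RNA-seq. Prl2c2 (0.43 ± 0.12, adjusted p = 0.149) and Prl2c5 (0.83 ± 0.38, adjusted p = 0.369) did not pass.

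In RPF-seq, where 5.68% of genes passed in this direction, Prl2c2 footprints were higher with shRNA2 by 1.14 ± 0.19 (adjusted p = 0.00336) and those of Prl2c5 by 2.00 ± 0.34 (adjusted p = 0.00393). The sum was higher by 0.95 ± 0.19 (0.53 to 1.36, adjusted p = 0.0115). Prl2c3 footprints differed by 0.63 ± 0.26 (adjusted p = 0.19) and did not pass. Limma called 0 genes for TE between the Denr shRNAs, with 392 at an unadjusted p under 0.05. The log2 TE differences of the members were 0.71 for Prl2c2 (95% interval 0.25 to 1.17), 0.03 for Prl2c3 (-0.53 to 0.59) and 1.18 for Prl2c5 (0.04 to 2.31).

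These calls depended in part on single lysates. Prl2c3 RNA did not pass without Denr shRNA2 replicate 3 (adjusted p = 0.144). The RNA sum did not pass without Denr shRNA1 replicate 2, without any of the 3 Denr shRNA2 replicates or without scramble replicate 2, with adjusted p between 0.105 and 0.25. Prl2c2 RNA passed without Denr shRNA1 replicate 3 (adjusted p = 0.0466), and Prl2c3 footprints passed without Denr shRNA2 replicate 2 (adjusted p = 0.0398). The footprint calls of Prl2c2, Prl2c5 and the sum passed with each of the 11 lysates left out. The size of the Prl2c5 differences was less certain, as its RNA difference of 0.83 was 0.28 without Denr shRNA1 replicate 1 and 0.37 with a pseudocount of 1 RPKM, which also took its footprint difference from 2.00 to 0.99 (adjusted p = 0.00997).

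The controls also differed from each other, in the direction of lower proliferin with Gfp shRNA than with scramble shRNA. Prl2c3 RNA fell by 0.84 on the log2 scale (SE 0.12, 95% interval -1.11 to -0.58, limma adjusted p = 0.0212), and 0.171% of all genes passed in this direction. The sum fell by 0.69 (SE 0.12, interval -0.96 to -0.42, adjusted p = 0.0523), which put it at 62.0% of the scramble mean in RPKM. Denr shRNA2 stood at 43.7% and Denr shRNA1 at 31.1% of the scramble mean. Prl2c2 RNA had a log2 difference of -0.56 (adjusted p = 0.159) and Prl2c5 RNA of -0.84 (adjusted p = 0.564), and neither passed. Denr RNA did not pass between these controls (-0.15 ± 0.14, SE, adjusted p = 0.714).

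In RPF-seq, where 3.1% of genes passed with lower values, Prl2c3 footprints fell by 1.36 (SE 0.29, adjusted p = 0.024) between scramble and Gfp shRNA, those of Prl2c2 by 0.81 (SE 0.21, adjusted p = 0.0542) and the sum by 1.09 (SE 0.21, adjusted p = 0.0176). Prl2c5 footprints had a difference of -0.03 (interval -0.85 to 0.79). For TE, limma called 0 genes between the controls, with 233 at an unadjusted p under 0.05, and the TE difference of the sum was -0.41 (-0.87 to 0.06).

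With 2 lysates of Gfp shRNA these calls were the least stable. Prl2c3 RNA did not pass without Gfp replicate 1 (adjusted p = 0.167), Gfp replicate 2 (0.2) or scramble replicate 2 (0.113), and the RNA sum passed only with Denr shRNA1 replicate 1, Denr shRNA1 replicate 3 or Denr shRNA2 replicate 3 left out, since the lysates of all groups share one estimate of the spread. Its adjusted p without a Gfp replicate was 0.335 and 0.294. Prl2c2 RNA passed without Denr shRNA1 replicate 1 (adjusted p = 0.0429) or replicate 3 (0.0705). Without Gfp replicate 2 the footprint calls were lost for Prl2c3 (adjusted p = 0.195), Prl2c2 (0.354) and the sum (0.18), and that of Prl2c2 was lost also without scramble replicate 3 (0.122).

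**Figure D3:**
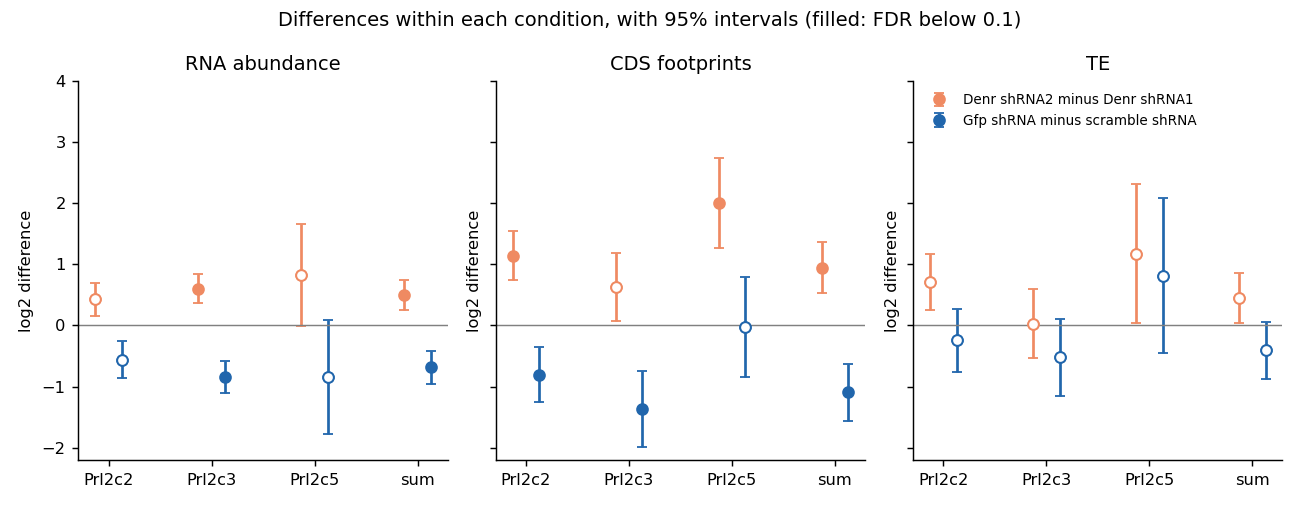
Log2 differences (vertical axis) of each member and their sum for Denr shRNA2 minus Denr shRNA1 and for Gfp minus scramble shRNA, in RNA, CDS footprints and TE, with bars for 95% intervals and filled points for an FDR below 0.1. In RNA the Denr shRNA contrast is above 0 and the control contrast below 0 for every gene, 0.60 and -0.84 for Prl2c3, and no point is filled for TE.

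With scramble shRNA alone as control, the knockdown difference of the summed RNA was -1.44, against -1.16 with both controls. It was -1.41 for Denr shRNA1 alone and -0.91 for Denr shRNA2 alone against both controls. The direction was the same for each of the 3 genes in RNA under these choices.

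Reads on the 5′ UTRs were few in RPF-seq, 0 to 10 per library for Prl2c2 and 0 to 13 for Prl2c3. Over the 6 knockdown libraries Prl2c2 had 17 and Prl2c3 6 such reads, and over the 5 control libraries 19 and 27. The log2 ratio of 5′ UTR to CDS of Prl2c2 was -1.03 ± 1.30 (SD, n = 6) in knockdown and -2.87 ± 2.14 (n = 5) in control lysates, a difference of 1.84 that rests on these few reads and was not tested. Prl2c5, whose annotated 5′ UTR covers the shared start of translation, had 3 to 29 reads and 0.973 to 8.82 times the footprint density of its CDS. Its log2 ratio of 5′ UTR to CDS was 1.32 ± 0.80 (SD, n = 6) in knockdown and 1.62 ± 0.91 (n = 5) in control lysates, a difference within the spread, and 97.2% of 10400 genes had a lower ratio in the controls.

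In RNA-seq the 5′ UTR of Prl2c3 was covered at 2.86 to 4.01 times the density of its CDS, with 12 to 85 reads. Its level was 21.6 RPKM in knockdown and 70.0 RPKM in control libraries. The ratio was 0.648 to 2.50 for Prl2c2 and 2.23 to 9.12 for Prl2c5. A lower 5′ UTR to CDS ratio in the control RNA was found in 96.9% of genes for Prl2c2, 99.1% for Prl2c3 and 98.9% for Prl2c5, where the median gene was at -1.16 on the log2 scale. Thus the 5′ UTR of Prl2c3 was lower in knockdown like its CDS. Of the 67 windows of 30 nt that start in this 5′ UTR, 34 occur in no other Prl2c gene. Windows that start near its end reach into the CDS, where they can cover T14C, so these 34 are not all 5′ UTR sequence.

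Proliferin transcription is classically linked to AP-1, the dimer of Fos and Jun proteins. The pattern searched for it was TGANTCA, where N allows any base in the centre. Promoters from RefSeq (GRCm38.p6, 250 bases before to 50 after the start of transcription) were found for 2 of the 3 genes. The promoters of Prl2c3 and Prl2c5 are 95.3% identical. The Prl2c3 promoter holds a TGANTCA match and that of Prl2c5 does not, which is why both stretches are shown, with the 7 bases in capitals beginning 209 bases before the start.
Prl2c3, chr13:12800271-12800300, minus strand: atgaacatgagaTGAATCAcatacatagaa
Prl2c5, chr13:13182495-13182524, plus strand: atgaacatgagaTGAACCAcgtacatagaa

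The difference within these 7 bases, counted from the first capital, is T5C from Prl2c3 to Prl2c5. TGANTCA, which reads the same on both strands, occurs in 7.81% of 32851 promoters. Both promoters also hold the TATA box letters TATATAA, 30 bases before the start in Prl2c3 and 31 in Prl2c5, which occur on either strand in 3.24% of promoters. A match describes the letters and not the binding of a factor.

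AP-1 subunits were measured for 8 of 12 genes. In RNA 1 was lower in knockdown and none higher, and in footprints 2 were lower and none higher, where 0.865% and 4.55% of all genes passed in that direction. The median log2 difference of the list was -0.11 in RNA and -0.17 in footprints, against 0.03 and 0.01 over all genes. Fosl1, which encodes the Fos family protein FRA-1, fell by 0.35 in RNA (SE 0.10, adjusted p = 0.0975) and by 0.44 in footprints (SE 0.10, adjusted p = 0.0287), from 280.5 ± 38.8 RPKM (SD, n = 5) in control to 207 ± 26.5 (n = 6) in knockdown RPF-seq. The RNA call held only when Denr shRNA1 replicate 1, Gfp replicate 1 or Gfp replicate 2 was the lysate left out (adjusted p 0.0483 to 0.255 over the 11), and it passed with neither Denr shRNA alone (adjusted p = 0.368 and 0.107). With Denr shRNA1 alone against the controls the footprint call was lost too (-0.30, adjusted p = 0.171).

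Jun footprints fell by 0.24 (SE 0.07, adjusted p = 0.0723), a call that 7 of 11 lysates decided, all but Denr shRNA1 replicate 2, scramble replicate 3 and the Gfp replicates (adjusted p up to 0.153). It was lost also with Denr shRNA1 alone (adjusted p = 0.258) and with scramble alone as control (0.102). Jun RNA had a difference of -0.25 (adjusted p = 0.198), and Fos was not analysed here.

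On the receptor side no RNA passed. Igf2r, the receptor to which proliferin binds, had 3.11 ± 0.28 RPKM (SD, n = 6) in knockdown and 2.91 ± 0.43 (n = 5) in control RNA, with log2 differences of 0.10 in RNA (adjusted p = 0.712) and 0.03 in footprints (adjusted p = 0.922). Of the 5 genes for mannose 6-phosphate receptors and the enzymes that make the tag, 1 passed, in footprints. This was Nagpa, the enzyme that uncovers the mannose 6-phosphate, whose footprints rose by 0.36 (SE 0.10, adjusted p = 0.0486), a call lost without scramble replicate 1 (0.101) or 2 (0.123) and with either Denr shRNA alone (0.164 and 0.122). In this direction 5.47% of all genes passed. Among the 27 other prolactin family genes and receptors 1 was measured, Ghr for the growth hormone receptor, and it did not pass in RNA (log2 difference 0.18) or footprints (0.27), and Prlr was not analysed here.

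Growth factors known to induce proliferin and their receptors (PDGF, FGF, EGF and TGF-β families) were measured for 15 of 22 genes, of which 1 rose and none fell in RNA, and 1 rose and 1 fell in footprints. Tgfb1 RNA, for the TGF-β ligand, rose by 0.60 (SE 0.14, adjusted p = 0.0416), from 6.50 ± 1.00 RPKM in control to 9.96 ± 1.94 in knockdown, and its footprints by 0.40 (adjusted p = 0.0237). Without scramble replicate 1 the RNA call was lost (adjusted p = 0.124), and with Denr shRNA1 alone against the controls both were (adjusted p = 0.169 in RNA and 0.102 in footprints). Tgfbr3, the TGF-β co-receptor betaglycan, fell by 0.25 in footprints (SE 0.06, adjusted p = 0.0258). In RNA 2.68% of all genes passed as higher, and in footprints 5.47% as higher and 4.55% as lower.

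Other secreted proteins that growth factors induce in fibroblasts were measured for 14 of 18 genes. In RNA 1 fell and none rose, and in footprints 2 fell and 2 rose, where over all genes 0.865% fell in RNA and 4.55% fell and 5.47% rose in footprints. Cxcl1 fell by 1.42 in RNA (SE 0.26, adjusted p = 0.0149) and by 1.87 in footprints (SE 0.39, adjusted p = 0.0202), on 9 to 61 RNA-seq reads. With Denr shRNA1 alone against the controls its RNA did not pass (adjusted p = 0.138), nor did the footprints of Spp1 named next (adjusted p = 0.112). The chemokine gene Ccl7 fell by 0.42 in footprints (adjusted p = 0.0156), whereas Ccn2, which encodes connective tissue growth factor, rose by 0.68 (adjusted p = 0.014) and Spp1 for osteopontin by 0.54 (adjusted p = 0.0251). The median of the list was -0.07 in RNA and -0.04 in footprints, against 0.03 and 0.01 over all genes. In TE no member of any list passed, where limma called 50 genes in all, each lower.

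Neighbouring genes were compared to see whether differences extended along the chromosome. Within 2 Mb of a member, 19 protein-coding genes other than Prl2c are annotated, of which 15 were measured. The nearest with values were Ero1lb, an endoplasmic reticulum oxidase on the side of Prl2c3, and Gpr137b, a lysosomal membrane protein on the side of Prl2c5. Ero1lb differed by -0.19 in RNA (adjusted p = 0.545) and Gpr137b by -0.37 (adjusted p = 0.309), and neither passed in footprints (-0.30 and -0.44).

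Nid1, next after Gpr137b and encoding the basement membrane protein nidogen, fell by 0.79 in RNA (SE 0.13, adjusted p = 0.00775) and by 0.86 in footprints (SE 0.11, adjusted p = 0.00197). Its RNA was 161 ± 34.3 RPKM (SD, n = 6) in knockdown, with 122 to 206 RPKM, and 273 ± 18.9 (n = 5) in control, with 249 to 301 RPKM, so that the conditions did not overlap. Both calls held with each lysate left out.

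Of the other neighbours AW209491 rose in RNA by 0.33 (SE 0.08, adjusted p = 0.0462), a call lost without Denr shRNA2 replicate 2 or 3 or scramble replicate 1 or 2 (adjusted p 0.104 to 0.154). In footprints Lgals8, Mtr and Heatr1 fell by 0.29, 0.29 and 0.27 (adjusted p = 0.0532, 0.0826 and 0.0999). Leaving out single lysates ended the call of Lgals8 for Denr shRNA1 replicate 2 and scramble replicate 2 (adjusted p up to 0.114). Mtr passed only without Denr shRNA2 replicate 1 or 3 or Gfp replicate 2, and Heatr1 only without a Gfp replicate (adjusted p up to 0.178 and 0.197). In all, 1 of 15 neighbours fell and 1 rose in RNA, and 4 fell in footprints, where over all genes 0.865% fell and 2.68% rose in RNA and 4.55% fell in footprints. The medians were -0.12 and -0.10, against 0.03 and 0.01 over all genes. With Denr shRNA1 alone against the controls AW209491 RNA did not pass (adjusted p = 0.297), with Denr shRNA2 alone the footprints of Lgals8 (-0.13, adjusted p = 0.278) and Mtr (-0.15, adjusted p = 0.353) did not, and those of Heatr1 passed with neither alone (adjusted p = 0.331 and 0.154).

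**Figure D4:**
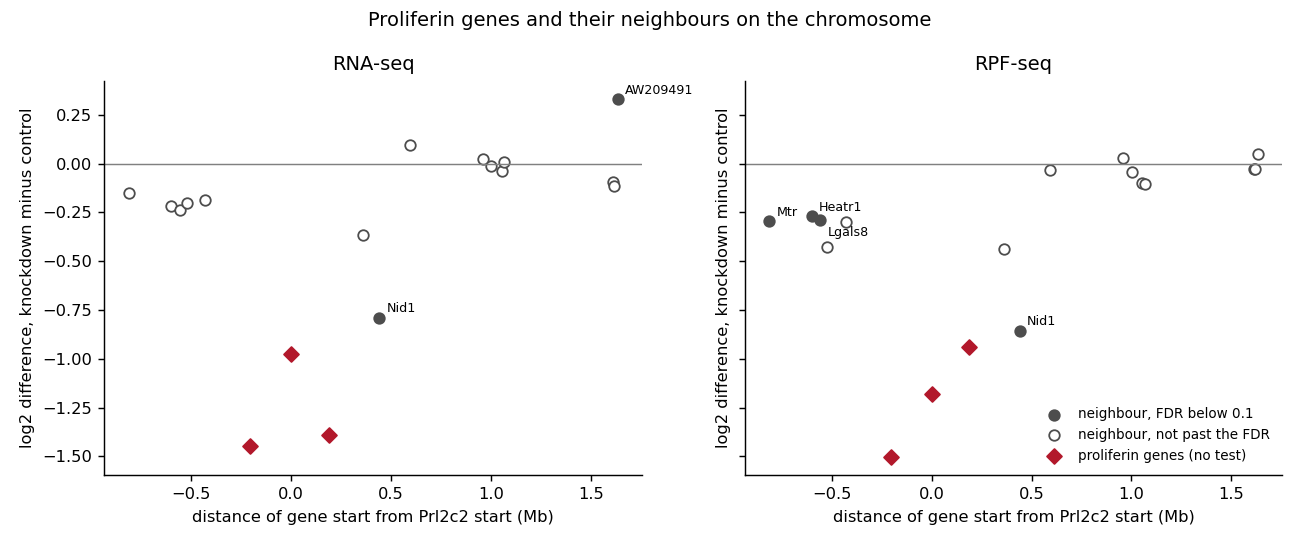
Log2 difference between knockdown and control (vertical axis) of the 15 neighbours with values and the 3 proliferin genes against the distance of each annotated gene start from that of Prl2c2 (horizontal axis, Mb), with filled circles for an FDR below 0.1 and diamonds for the proliferin genes, which carry no test. Nid1, at -0.79 in RNA-seq and -0.86 in RPF-seq, is the lowest neighbour in both assays, and the genes beyond it lie between -0.12 and 0.33 in RNA-seq.

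The genes whose RNA profile over the 11 RNA-seq libraries was most like that of the summed proliferin genes, by the root mean square difference of mean-centred log2 values, were Glyat (0.28), Ecm1 (0.29), Ptpn22 (0.31), Sbsn (0.32) and Adam19 (0.33). The median of this difference over the 10342 genes compared was 0.70. The proliferin profile itself had a root mean square of 0.66, the difference that a flat profile would have. Ecm1, an extracellular matrix glycoprotein, had means of 18.2 RPKM with Denr shRNA1, 27.995 with Denr shRNA2, 37.4 with Gfp and 43.4 with scramble shRNA, the order of the proliferin genes. Adam19, a membrane metalloprotease, had 20.7, 28.96, 29.7 and 43.0 RPKM in this order. Sbsn had 5.38, 9.07, 9.23 and 12.2 RPKM. Glyat had 1.349, 1.354, 2.593 and 3.73 RPKM, so the Denr shRNAs were nearly level. Ptpn22 had 1.087, 1.497, 1.476 and 2.565 RPKM, so Gfp shRNA was not above Denr shRNA2. These genes were picked for their likeness to the proliferin profile, so nothing is read from a shared order.

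In RPF-seq the genes with the nearest profiles included Sbsn (0.33), Cyp3a13 (0.36), Adam19 (0.40) and Ecm1 (0.42). The median difference over the 10181 genes compared was 0.89, and the proliferin profile itself had a root mean square of 0.87. Sbsn, Adam19 and Ecm1 were among the 5 in both assays. Sbsn, which encodes the secreted protein suprabasin, had footprints of 11.4, 19.8, 19.6 and 34.5 RPKM with Denr shRNA1, Denr shRNA2, Gfp and scramble shRNA. Likeness here is a description over libraries of 4 shRNAs.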

How the data were processed

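RPF-seq and RNA-seq of 11 lysates of NIH3T3 cells were used, grouped by the sample titles. The values are RPKM of CDS and 5′ UTR per gene, deposited per library. The study's methods state that the authors trimmed the reads, mapped them sequentially to several references ending with the mouse genome (GRCm38), assigned footprints to the CDS or 5′ UTR by the position of the A-site, discarded sparsely covered genes, and scaled each assay on its own with upper-quartile factors from edgeR. The submitters' processing notes name Bowtie2 2.2.1, TopHat2 2.0.11 and Cufflinks 2.2.1. Whole reads were recovered from the steps of the RPKM values, for 231352 of 231352 CDS values within 0.01 reads. RPKM makes members comparable but does not undo reads shared between near-identical genes.

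Values were tested as log2(RPKM + 0.1), a scale that understates changes of low genes, with limma 3.58.1 (lmFit, eBayes with trend), Benjamini-Hochberg adjustment over all 10516 genes and an FDR of 0.1. The sum of the 3 genes was added as a row to the same table. The contrasts between shRNAs came from a fit of the 4 shRNA means. Replicates were separate dishes of one line, so p-values of the contrasts between shRNAs measure the spread between dishes. Knockdown against control was fitted on the condition alone, without the shRNA. Its spread therefore also holds differences between the shRNAs of a condition, and dishes of one shRNA were counted as independent. Sequences came from GENCODE M21 and RefSeq. Scripts were tested on simulated data. The members and gene lists were chosen with earlier results of these data known.

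Named genes were the members, list genes past the FDR (at most 4 per list and assay), Igf2r, Jun, Fos, Prlr and Denr, neighbours within 2 Mb past the FDR and the nearest on each side, the 5 genes most like the summed profile in each assay with a mean of at least 1 RPKM (1 of those in RPF-seq is not reported here), and the 3 genes nearest to Prl2c3 and Prl2c5 in RNA decrease. Ptx3 and Ecm1, the neighbours of Prl2c2 in that order, were added after their values were seen. Alternatives were other pseudocounts (0.01, 1), a filter on low values, median centring, single shRNAs, limma without trend, voom on the recovered reads, the replicate number as a block and leaving out each lysate.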

Additional observations from a re-analysis of the deposited data

Results flagged for a closer look

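Between the 2 Denr shRNAs, 5 of the values tested for the members and their sum in RNA, footprints and TE passed, each higher with shRNA2. They were RNA of Prl2c3 (log2 difference 0.60) and of the sum (0.50), and footprints of Prl2c2 (1.14), Prl2c5 (2.00) and the sum (0.95). The test was the limma contrast between the shRNAs at an FDR of 0.1. In this direction 1.13% of all genes passed in RNA-seq and 5.68% in RPF-seq. The sums are built from the same genes as the single values, so the calls are not independent. With each of 11 lysates left out in turn, the RNA call was lost 1 time for Prl2c3 and 5 times for the sum. Denr RNA was lower with shRNA2, at 9.90% of the control mean against 22.5% with shRNA1. The 2 shRNAs also differ in sequence, and whether the level of Denr had a part was not tested. The Prl2c5 value rests on 2 to 4 footprint reads per library with shRNA1 and 12 to 17 with shRNA2. Differences of like size passed between the controls, lower with Gfp than with scramble shRNA. They were -0.84 for Prl2c3 and -0.69 for the sum in RNA. In footprints they were -0.81 for Prl2c2, -1.36 for Prl2c3 and -1.09 for the sum. With 2 lysates of Gfp shRNA these control calls were the least stable, as given above. None of 24 sets of knockdown or control values of the members (CDS RPKM of both assays, TE) held a lysate that stood apart from the others by Dixon's criterion, which chance would meet in about 1 of 20. Each set pools 2 shRNAs, and a difference in their levels widens its range. A lysate that stood apart within one shRNA could therefore be missed.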

How the results depend on the processing

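Knockdown against control kept its direction for RNA of the members under the alternatives run. RNA of Prl2c2 changed from -0.97 to -1.19 with Denr shRNA1 alone, -0.76 with Denr shRNA2 alone and -1.20 with scramble alone as control, Prl2c3 from -1.45 to -1.74, -1.15 and -1.78, and the sum from -1.16 to -1.41, -0.91 and -1.44. A pseudocount of 1 RPKM gave -1.33 for Prl2c3 and -0.82 for Prl2c5. Footprints of Prl2c2 changed to -1.75, -0.61 and -1.50, and of the sum to -1.82, -0.88 and -1.79 under the same 3 choices of shRNA. Those of Prl2c3 changed to -2.05 with scramble alone, and of Prl2c5 to -1.94 with Denr shRNA1 alone and to 0.061 with Denr shRNA2 alone, which turned the direction. TE of Prl2c2 was -0.56 with Denr shRNA1 alone and 0.15 with Denr shRNA2 alone. The 5′ UTR to CDS ratio of Prl2c2 in RPF-seq changed from 1.84 to 0.62 with scramble alone, on 0 to 10 reads. A pseudocount of 1 RPKM took the Prl2c5 difference between the Denr shRNAs to 0.37 in RNA and 0.99 in footprints. Voom on the recovered reads turned the footprint difference of Prl2c5 between the controls from -0.03 to 0.13 (adjusted p = 0.877).

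The replicate number was used as a block only as an alternative, and no sample title ties it to a batch or day. Deviations from the group means correlated above 0.1 in 10 of 15 same-numbered pairs in RNA-seq, 13 in RPF-seq and 10 in TE. In the same order, 5, 9 and 9 of 11 lysates correlated best with their own number. Whether lysates of one number shared a batch was not tested. With the block, Prl2c2 RNA (0.43, adjusted p = 0.0458) and Prl2c3 footprints (0.63, adjusted p = 0.0193) passed between the Denr shRNAs. The block gave 5 list genes higher and 4 lower in RNA, and 2 neighbours lower. It changed no other call between the shRNAs of one condition for the members.

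Leaving out single lysates gave ranges of 0.32 to 0.57 for Prl2c2, 0.54 to 0.66 for Prl2c3 and 0.38 to 0.60 for the sum in RNA between the Denr shRNAs, and of -0.62 to -0.50, -0.93 to -0.76 and -0.74 to -0.64 between the controls. Footprints ranged from 0.32 to 0.94 for Prl2c3 between the Denr shRNAs and between the controls from -1.07 to -0.54 for Prl2c2, -1.53 to -1.20 for Prl2c3, -0.45 to 0.33 for Prl2c5 and -1.31 to -0.88 for the sum. TE ranged from -0.55 to 0.06 for Prl2c2 between the controls and from -0.24 to 0.30 for Prl2c3 between the Denr shRNAs. The knockdown difference of Prl2c3 RNA was -1.59 to -1.33. Without scramble replicate 1, 2 or Gfp replicate 2, Prl2c5 footprints between the controls were 0.33, 0.03 and 0.17. TE of Prl2c2 between the controls was 0.060 without Gfp replicate 2, and that of Prl2c3 between the Denr shRNAs was -0.02, -0.09 and -0.24 without Denr shRNA1 replicate 1, Denr shRNA1 replicate 2 or Denr shRNA2 replicate 3.

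Of the 55 list genes, 1 was higher and 2 were lower in RNA, and 4 higher and 5 lower in footprints. RNA gave 0 higher and 0 lower with Denr shRNA1 alone, 5 lower with Denr shRNA2 alone, 8 higher and 4 lower with scramble alone, and 1 lower without the trend, and 0 to 4 higher and 1 to 4 lower with a lysate left out. Footprints gave 2 higher with Denr shRNA1 alone, 16 higher and 8 lower with scramble alone, and 3 to 9 higher with a lysate left out. Of the neighbours, 0 were higher and 2 lower in RNA with Denr shRNA1 alone, 2 were lower with scramble alone, 1 was lower in footprints with Denr shRNA2 alone, and 0 to 1 were higher in RNA and 1 to 5 lower in footprints with a lysate left out. Over all genes, RNA-seq called 282 higher and 91 lower in knockdown, 191 and 107 with median centring, 750 and 253 with the block, 708 and 232 with scramble alone and 70 and 89 with Denr shRNA1 alone. RPF-seq called 575 and 478, against 1067 and 873 with the block and 1470 and 1181 with scramble alone, and TE 50, against 10 with scramble alone and 1 with Denr shRNA1 alone. Between the Denr shRNAs the block raised calls from 217 to 965 in RNA-seq and from 1019 to 1812 in RPF-seq, and between the controls from 74 to 157 and from 892 to 1437. The cause of these changes was not tested. Depth limits Prl2c5, with 2 to 36 reads per library, and the footprints on the 5′ UTRs.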
